A study of Mus musculus with 28 samples.

Results

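Cd209a, Cd209b, Cd209d, Cd209e, Mgl2 and Clec10a encode C-type lectins of mouse dendritic cells and macrophages, and their RNA is described here in every library of the study. They were taken by gene symbol from the deposited tables, 1 row per Ensembl gene, and are 6 of 55487 genes. The RNA came from sort-purified conventional dendritic cells of C57BL/6 mouse spleens, in 28 libraries that form 14 groups of 2 biological replicates. Experiment 1 held hybrid cells of Irf8 +32H/H (H/H) and Irf8 +32H/+ (H/+) mice, and type 1 cells (cDC1) and type 2 cells (cDC2) of H/H, H/+ and wild-type (WT) mice. Experiment 2 held cDC1 of H/H Nfil3-/-, H/H and WT mice, and hybrid cells of H/H Nfil3-/-, H/H Zeb2 -165D123 and H/H mice. All Nfil3-/- and Zeb2 -165D123 mice, and the H/H mice they were set against, carried the altered Irf8 allele on both chromosomes. +32H is an altered allele of an Irf8 enhancer, Nfil3-/- mice lack the transcription factor NFIL3, and -165D123 is an altered allele of a Zeb2 enhancer. No Cre line or cell-type promoter is named in the labels, so these are described as alleles of the whole animal, and the gates that separate cDC1, cDC2 and hybrid cells are not given in the sources used here.

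C-type lectins bind sugars through a calcium-dependent domain outside the cell. The mouse Cd209 genes are relatives of human DC-SIGN, a receptor for mannose- and fucose-containing glycans that takes up microbes and glycoproteins for antigen presentation. Cd209a is the member best known from dendritic cells, where it is used as a marker of cDC2 and of dendritic cells made from monocytes. Cd209b encodes SIGNR1, best known from marginal zone macrophages of the spleen, where it captures microbial polysaccharides. Cd209d and Cd209e encode SIGNR3 and SIGNR4. Mgl2 (CD301b) and Clec10a (MGL1, CD301a) form another pair that binds galactose and N-acetylgalactosamine, and Mgl2 marks a group of cDC2 in skin and other tissues.

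The Cd209 genes lie side by side on the minus strand of chromosome 8 and the Mgl genes on the plus strand of chromosome 11 (GRCm38). Cd209a (ENSMUSG00000031494) spans 3743397 to 3748984, Cd209e (ENSMUSG00000040197) 3847965 to 3854309, Cd209d (ENSMUSG00000031495) 3871824 to 3878555 and Cd209b (ENSMUSG00000065987) 3917655 to 3926844, so the 4 genes fit within 183.4 kb. Mgl2 (ENSMUSG00000040950) spans 70130329 to 70137550 and Clec10a (ENSMUSG00000000318) 70156197 to 70170834, with 18.6 kb between them. All values count reads over a whole gene, so they do not separate exons, introns or isoforms. The transcripts of the Cd209 genes share no stretch of 50 bases with each other or with Cd209c. Those of Mgl2 and Clec10a share a stretch of 183 bases, and 12.2% of the 50-base words of Mgl2 and 8.49% of those of Clec10a occur in the other gene.

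The promoters of 3 of the Cd209 genes hold the same 10 bases, and the surrounding sequence is shown because these genes are compared throughout and IRF8, the factor whose gene is altered, can bind such elements with the ETS factor PU.1. Capitals mark the 10 bases, which read GGAAGAGAAA on the other strand and match the ETS-IRF composite motif, GGAA and GAAA with any 2 bases between. The 75-base windows are the gene strand, 5′ to 3′, from RefSeq promoters on GRCm38.p6, and all lie on the minus strand at chr8:3748964-3749038 for Cd209a, chr8:3854342-3854416 for Cd209e, chr8:3878540-3878614 for Cd209d and chr8:3926856-3926930 for Cd209b.
Cd209a: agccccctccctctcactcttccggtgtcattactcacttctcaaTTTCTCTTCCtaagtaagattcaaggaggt
Cd209e: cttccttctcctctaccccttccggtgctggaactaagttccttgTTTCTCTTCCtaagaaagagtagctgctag
Cd209d: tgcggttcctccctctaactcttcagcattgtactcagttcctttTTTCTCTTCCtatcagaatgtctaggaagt
Cd209b: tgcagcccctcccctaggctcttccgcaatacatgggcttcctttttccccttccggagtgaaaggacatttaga

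Counted from the annotated start base as 1, with no position 0, the 10 bases run from -9 to 1 in Cd209a, from -85 to -76 in Cd209e and from -70 to -61 in Cd209d. The Cd209b window is the part of its promoter with the most bases identical to the other windows, summed. It was identical to that of Cd209d at 57.3%, of Cd209a at 40.0% and of Cd209e at 36.0% of bases, and it does not hold these letters. The windows of Cd209e and Cd209d were identical to that of Cd209a at 58.7% and 52.0% of bases. Among all 32851 RefSeq promoters, the composite motif occurred on either strand in 2.72%, and the exact 10 bases in 0.432%, or 0.213% in this orientation. These shares are for whole promoters, which are longer than the windows shown and reach at least to -225, where Mgl2 has a PU.1 core. The other motifs searched on both strands were the IRF repeat, GAAA and GAAA with any 2 bases between (3.44% of promoters), the ZEB E-box CAGGTG (20.2%), the NFIL3 site TTATGTAA (0.938%) and the AP-1 site TGANTCA (7.81%), and these letters were in none of the 5 members' promoters in the table. The PU.1 core GAGGAA, in 28.3% of promoters, occurred in those of Cd209d and Mgl2. The ETS-IRF letters overlap no other motif hit in these promoters, and a match is a description of the sequence, not a binding site. Clec10a is named only.

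Library totals were between 17540512 and 38174301 counts, and levels are CPM, counts relative to the scaled library size. The cDC1 marker Xcr1 stood at 934 CPM in WT cDC1 and 5.45 in WT cDC2, and the cDC2 marker Sirpa at 1.03 and 256 CPM, while H/H hybrid cells of experiment 1 had 465 CPM of Xcr1 and 97.2 of Sirpa. All 10 genes of a cDC1 list were higher and 9 of 10 of a cDC2 list were lower in WT cDC1 than in WT cDC2, the exception being the lectin Clec12a. Nfil3 was at 2.76 to 5.70 CPM in the 4 Nfil3-/- libraries and at 30.9 to 55.3 CPM in the other 8 libraries of experiment 2. In the libraries of experiment 1, none of them Nfil3-/-, Nfil3 was at 6.03 to 11.7 CPM, and why the experiments differed was not tested. Zeb2 was at 10.3 and 19.6 CPM in Zeb2 -165D123 hybrid cells, against 38.6 and 46.9 CPM in H/H hybrid cells. Irf8 was at 2580 and 1960 CPM in WT cDC1 of experiment 1, 1221 and 1091 in H/+ cDC1 and 837 and 831 in H/H cDC1. It was at 544 and 580 CPM in H/H hybrid cells there, and in cDC2 at 48.9 and 47.9 (WT) and 86.2 and 109 (H/H). Irf4 was at 2.48 and 3.04 CPM in WT cDC1 of experiment 1, 111 and 107 in WT cDC2 and 22.3 and 22.5 in H/H hybrid cells. In each group of experiment 1, Xist, the RNA of the inactive X chromosome, was at 120 to 215 CPM in replicate 2 and at most 0.0349 CPM in replicate 1, so the replicate number goes with sex. An alternative fit with the replicate number as a block is then also one with a term for sex. In bulk RNA, fewer cells of a type and less RNA per cell cannot be told apart. All 6 lectins passed the filter on low counts in both experiments, in which 16036 and 14504 genes were tested. Adjusted p is from edgeR's quasi-likelihood test with Benjamini-Hochberg adjustment over all genes of a comparison, the threshold is 0.05, log2 fold changes are given ± standard error, and group means are given ± SD (n = 2 libraries).

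Cd209a was the most abundant of the 6 per kb of exon in all 14 groups and held 60.8% to 94.4% of the summed Cd209 level per kb. In experiment 1 its order ran from H/+ hybrid cells (1048 ± 280 CPM) and H/H hybrid cells (866 ± 85.3) over WT (565 ± 7.51), H/+ (457 ± 61.7) and H/H cDC2 (421 ± 9.89) to H/H (137 ± 23.8), H/+ (77.3 ± 16.3) and WT cDC1 (10.2 ± 0.988). The 2 hybrid groups overlapped each other, as did H/+ and H/H cDC2. Per kb of exon, Cd209e held 27.4% of the Cd209 sum in WT cDC1 and 0.936% in WT cDC2, where Cd209d was the member next to Cd209a. Mgl2 and Clec10a reached their highest levels in WT cDC2, at 12.7 ± 2.45 and 15.6 ± 0.856 CPM.

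**Figure D1:**
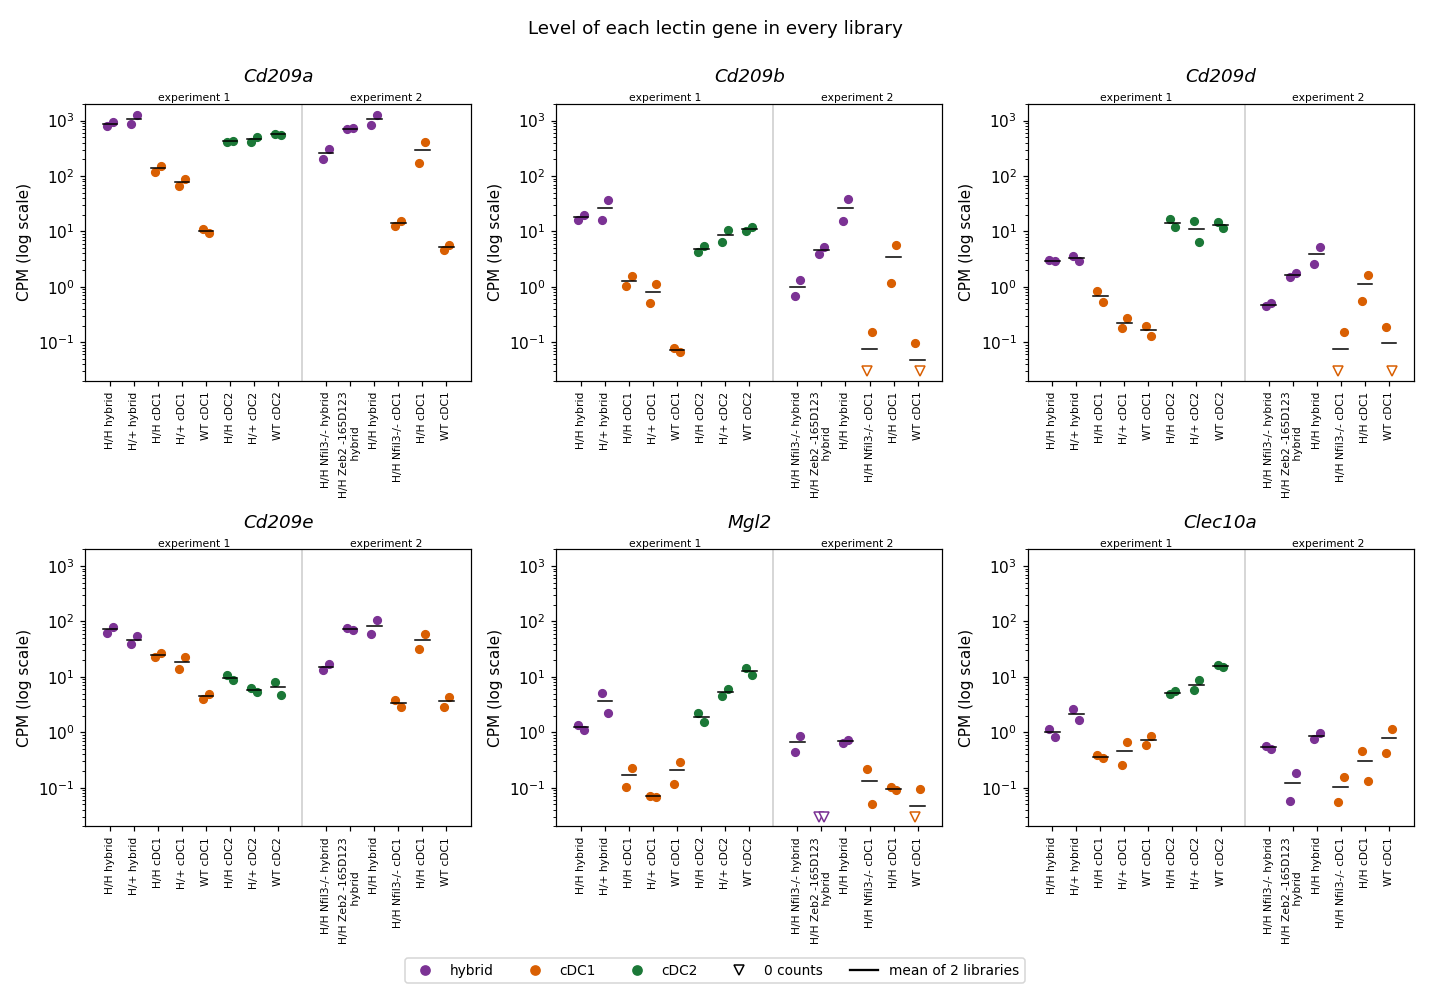
Level of each lectin in every library, in CPM on a log axis, by group, with lines for the means of 2 libraries and open triangles for 0 counts. Cd209a, Cd209b and Cd209e are highest in hybrid cells, while Cd209d, Mgl2 and Clec10a are highest in cDC2.

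WT cDC1 had far less of 5 of the 6 lectins than WT cDC2. Cd209a stood at 10.9 and 9.49 CPM in WT cDC1, against 570 and 560 CPM in WT cDC2, which is 55.5-fold lower (log2 fold change -5.79 ± 0.23, edgeR adjusted p = 2.75e-10). Cd209b was almost absent from WT cDC1, with 2 counts in each library, against 321 and 498 counts in WT cDC2 (log2 -7.21 ± 0.67). Cd209d (log2 -6.33 ± 0.49), Mgl2 (-5.88 ± 0.48) and Clec10a (-4.42 ± 0.36) were lower too, and the groups did not overlap for any of these 5. Cd209e had no such gap, with 4.05 and 4.97 CPM in WT cDC1 and 8.09 and 4.78 CPM in WT cDC2, and its groups overlapped (log2 -0.50 ± 0.31, edgeR adjusted p = 0.214). In this comparison 44% of all genes passed the threshold, 23.4% of all genes as lower. Splenic macrophage markers moved the same way, with 9 of 11 tested genes lower in WT cDC1 and a summed level of 81.6 to 117 CPM, against 661 to 705 CPM in WT cDC2, and their part in the lectin values was not tested. Vsig4, a gene of tissue macrophages, had 0 counts in WT cDC1 and 1 in WT cDC2.

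cDC1 with the altered Irf8 allele on 1 chromosome had more Cd209a and Cd209e than WT cDC1. Cd209a stood at 65.8 and 88.8 CPM in H/+ cDC1, against 10.9 and 9.49 CPM in WT cDC1. Cd209e stood at 13.8 and 23.0 CPM in H/+ cDC1, against 4.05 and 4.97 CPM in WT cDC1. Both H/+ libraries were above both WT libraries for either gene, with Cd209a 7.60-fold (edgeR adjusted p = 2.36e-05) and Cd209e 4.06-fold higher (edgeR adjusted p = 0.00691). These 2 of 6 lectins passed the threshold, as did 1.47% of all genes, 1.16% as higher. Cd209b had 14 and 33 counts in H/+ cDC1 and 2 and 2 in WT cDC1, without overlap, and did not pass (edgeR adjusted p = 0.0941), but did with the replicate block (edgeR adjusted p = 0.00407) and with DESeq2 (adjusted p = 0.00182). Without WT replicate 1 or 2, a fit in which the lone library is assumed to vary like the other groups, Cd209e no longer passed (edgeR adjusted p = 0.0918 and 0.0649), while Cd209a did. Of the marker lists, 2 of 10 cDC2 genes, 1 of 7 tested genes of plasmacytoid dendritic cells and 1 of 5 tested B cell genes were higher, 2 of 10 cDC1 genes were lower, and 0 of 11 macrophage genes passed. The B cell sum was 67.9 to 89.5 CPM in H/+ cDC1, against 27.2 to 30.3 CPM in WT cDC1, and the cDC2 sum 234 to 238 CPM, against 197 to 199 CPM, and their part in the lectin values was not tested.

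With both Irf8 alleles altered, Cd209a, Cd209b and Cd209e were higher in cDC1 than in WT. Cd209a stood at 120 and 154 CPM in H/H cDC1, against 10.9 and 9.49 CPM in WT cDC1 (13.5-fold, edgeR adjusted p = 3.78e-07). Cd209e stood at 23.0 and 27.0 CPM in H/H cDC1, against 4.05 and 4.97 CPM in WT cDC1 (5.52-fold, edgeR adjusted p = 0.000433). Cd209b, the marginal zone lectin, rose 16.8-fold from a base of few reads, with 29 and 40 counts in H/H cDC1 and 2 and 2 in WT cDC1 (edgeR adjusted p = 0.0175). Both H/H libraries lay above both WT libraries for these 3 genes and for Cd209d, which had 24 and 14 counts in H/H cDC1 and 5 and 4 in WT cDC1 but did not pass (edgeR adjusted p = 0.0885), as it did with the replicate block (edgeR adjusted p = 0.0242) and with DESeq2 (adjusted p = 0.0183). Mgl2 stayed low, with means of 0.168 ± 0.0892 CPM (H/H cDC1) and 0.206 ± 0.125 CPM in WT cDC1, and Clec10a stood at 0.365 ± 0.0267 and 0.720 ± 0.185 CPM. Of all genes 4.17% passed the threshold, 2.7% as higher. The call of Cd209b was lost without WT replicate 1 or 2 or H/H replicate 2 (edgeR adjusted p = 0.136, 0.196 and 0.109), and those of Cd209a and Cd209e were not lost by leaving out any library of these groups.

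None of the 6 lectins passed between H/H and H/+ cDC1 (0.281% of all genes did), although 2 had an unadjusted edgeR p below 0.05 and DESeq2 called 1, Cd209a. Its libraries did not overlap, at 120 and 154 CPM in H/H cDC1 and 65.8 and 88.8 CPM in H/+ cDC1 (1.77-fold, edgeR adjusted p = 0.116). It passed without H/+ replicate 2 (edgeR adjusted p = 0.0487) and with the replicate block (edgeR adjusted p = 0.00829). Cd209e was 1.36-fold higher in H/H cDC1, with an edgeR adjusted p of 0.768. The libraries of Cd209d, Cd209e and Mgl2 did not overlap either, while those of Cd209b and Clec10a did. Counts of lectins by unadjusted p or by DESeq2, here and below, are descriptions. The shares of all genes beside them are those of the edgeR adjusted p, so such counts cannot be set against a general rate.

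The experiment 2 libraries repeated the comparison of H/H with WT cDC1 with other cells. Cd209a stood at 174 and 403 CPM in H/H cDC1, against 4.71 and 5.66 CPM in WT cDC1, and Cd209e at 31.6 and 59.1 CPM, against 2.85 and 4.35 CPM. Both were higher in H/H cDC1, Cd209a 55.6-fold (edgeR adjusted p = 0.000841) and Cd209e 12.6-fold (edgeR adjusted p = 0.00124). Cd209d was the other call, with 11 and 37 counts in H/H cDC1 and 4 and 0 in WT cDC1 (log2 3.48 ± 0.88, edgeR adjusted p = 0.0279). Cd209b had 148 counts in the 2 H/H libraries and 2 in the 2 WT libraries, a ratio of 74.9 with a 95% interval of 20.4 to 624 that covers counting error only. It missed the threshold (edgeR adjusted p = 0.0668), and its H/H libraries lay apart at 23 and 125 counts. So 3 of 6 lectins passed, against 6.32% of all genes, 4.37% as higher. Cd209d no longer passed without H/H replicate 2 or WT replicate 2 (edgeR adjusted p = 0.227 and 0.17), while Cd209b passed without H/H replicate 1 (edgeR adjusted p = 0.0131).

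The 2 H/H cDC1 libraries of experiment 2 differed more in these lectins than in cDC2 markers. The second held 403 CPM of Cd209a and 5.58 of Cd209b, the first 174 and 1.18 CPM. The summed level of the 10 cDC2 markers was 399 CPM in the second and 410 CPM in the first. Over genotypes that sum did move with the lectins, at 399 to 410 CPM in H/H and 192 to 219 CPM in WT cDC1 of experiment 2, with 9 of 10 genes higher. In experiment 1 it was 282 to 308 CPM in H/H and 197 to 199 CPM in WT cDC1, with 6 of 10 genes higher, and 1181 to 1235 CPM in WT cDC2. The summed level of 6 B cell genes was 114 to 119 CPM in H/H cDC1, against 27.2 to 30.3 CPM in WT cDC1 of experiment 1, almost all of it Ms4a1, the gene of CD20 (111 against 24.7 CPM). The part of these markers in the lectin values was not tested.

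In H/H cDC2 both Mgl genes were at lower levels than in WT cDC2, and Mgl2 passed the threshold. Mgl2 stood at 2.20 and 1.51 CPM in H/H cDC2, against 14.5 and 11.01 CPM in WT cDC2. It was 6.85-fold lower (log2 -2.78 ± 0.37, edgeR adjusted p = 0.00408), in a comparison in which 0.0811% of all genes passed, 0.0125% as lower, and was the 1 lectin of 6 past the threshold. Clec10a ran with it without passing, at 4.93 and 5.48 CPM in H/H cDC2 against 16.3 and 15.0 CPM in WT cDC2 (log2 -1.59 ± 0.29, edgeR adjusted p = 0.067). The call on Mgl2 was lost without WT replicate 1 (edgeR adjusted p = 0.0548) or H/H replicate 2 (edgeR adjusted p = 0.172). Cd209a stood at 414 and 428 CPM in H/H cDC2 and 570 and 560 CPM in WT cDC2, and Cd209b at 4.27 and 5.54 CPM, against 10.4 and 12.1 CPM, both without overlap and without passing. Cd209d and Cd209e had log2 fold changes of 0.11 ± 0.31 and 0.60 ± 0.29. With the replicate block 3 lectins passed, Clec10a (edgeR adjusted p = 0.0366) and Cd209b (edgeR adjusted p = 0.0373) besides Mgl2, and DESeq2 without it called Mgl2 and Clec10a (DESeq2 adjusted p = 0.000277 for Clec10a). Of the marker lists, 1 of 10 cDC1 genes was higher, Clec9a, and none of the cDC2, macrophage, monocyte, B cell or T cell genes tested passed.

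H/+ cDC2 lay between for both Mgl genes. Mgl2 stood at 4.57 and 6.14 CPM and Clec10a at 5.74 and 8.76 CPM in H/+ cDC2, all below the 11.01 to 16.3 CPM of the WT libraries. Neither passed (log2 -1.25 ± 0.34 and -1.11 ± 0.29, edgeR adjusted p = 0.632 and 0.56), and 0 of 6 lectins and 0.0249% of all genes did. Both had an unadjusted edgeR p below 0.05, and DESeq2 called 0. The gap between the H/+ and H/H libraries was wider for Mgl2 than for Clec10a, for which the highest H/H library (5.48 CPM) almost met the lowest H/+ library (5.74 CPM). No test was made between these groups.

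Mgl2 and Clec10a cannot be read as fully separate counts, because they share sequence. In 15 of 28 libraries at least 1 of them had a fractional value, and in all 15 the 2 values added up to a whole number within 0.005. Their sum, added after seeing the data, does not depend on how such reads were divided. It stood at 7.13 and 6.99 CPM in H/H cDC2, against 30.7 and 26.1 CPM in WT cDC2, and was 4.02-fold lower (log2 -2.01 ± 0.30, edgeR adjusted p = 0.0206). Mgl2 was 31 and 21.5% of that sum in H/H cDC2, against 47.1 and 42.3% in WT cDC2.

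**Figure D2:**
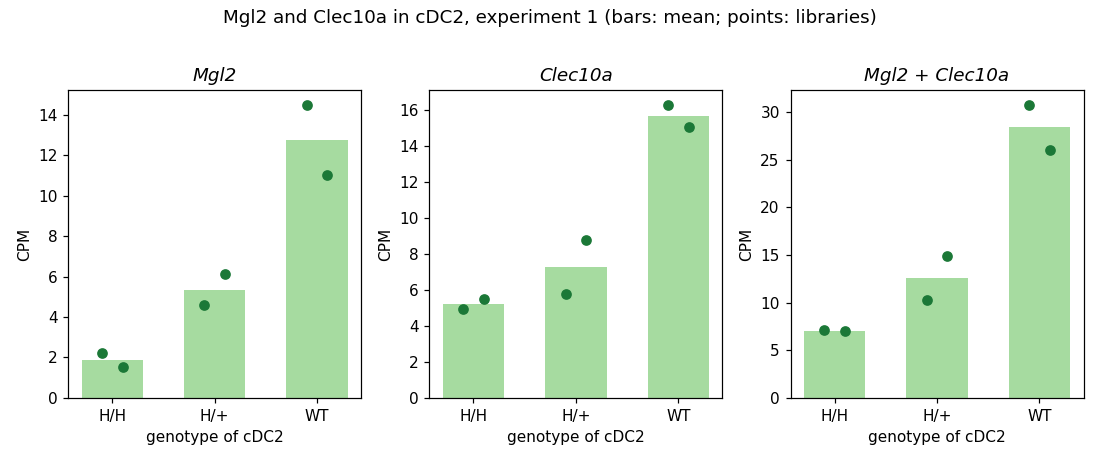
Mgl2, Clec10a and their sum in cDC2 of experiment 1, in CPM, with 1 point per library and bars for the mean of each group. H/H cDC2 are lowest, H/+ between and WT highest, and no H/H library reaches a WT library.

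The change with the H/H genotype differed between cDC1 and cDC2 for Cd209a, Cd209b and Cd209e. The difference between the log2 changes, cDC1 minus cDC2, was 4.18 ± 0.28 for Cd209a, with an edgeR adjusted p of 3.65e-06. It was 5.26 ± 0.93 for Cd209b (edgeR adjusted p = 0.0108) and 1.87 ± 0.41 for Cd209e (edgeR adjusted p = 0.0408). Cd209a and Cd209b changed upward in cDC1 and had negative values in cDC2 that did not pass, whereas Cd209e had positive values in both. These 3 of 6 lectins passed, against 1.9% of all genes, 1.4% in that direction. Mgl2 (2.42 ± 0.84), Cd209d (1.96 ± 0.71) and Clec10a (0.60 ± 0.56) did not. Cd209a kept its call without any of the 8 libraries, Cd209b lost it without WT cDC1 replicate 1 or 2 or H/H cDC1 replicate 2 (edgeR adjusted p = 0.0832, 0.115 and 0.0665), and Cd209e lost it in 7 of 8 such fits (edgeR adjusted p up to 0.194), all but the one without WT cDC2 replicate 2.

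In H/+ and H/H mice Cd209e was higher in cDC1 than in cDC2, which its WT libraries did not show, and the other members were lower in cDC1. Cd209e stood at 13.8 and 23.0 CPM in H/+ cDC1, against 6.18 and 5.24 CPM in H/+ cDC2, and was 3.22-fold higher (edgeR adjusted p = 0.000616). In H/H mice it stood at 23.0 and 27.0 CPM in cDC1, against 10.7 and 8.67 CPM in cDC2 (2.58-fold higher, edgeR adjusted p = 0.00221). The other 5 lectins were lower in cDC1 in both genotypes, in comparisons in which 38.3% (H/+) and 36.7% (H/H) of all genes passed. Of all genes 18.3% were higher and 20% lower in H/+ cDC1, and 17.6% higher and 19.1% lower in H/H cDC1. The gap in Cd209a was 5.91-fold in H/+ and 3.07-fold in H/H mice. Cd209b in H/H mice no longer passed without H/H cDC1 replicate 1 (edgeR adjusted p = 0.0567).

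Hybrid cells had more Cd209a, Cd209b and Cd209e than either cDC1 or cDC2 of the same genotype. In H/H mice of experiment 1, Cd209a stood at 806 and 927 CPM in hybrid cells, against 120 and 154 CPM in cDC1 and 414 and 428 CPM in cDC2. Cd209e stood at 62.9 and 80.5 CPM in hybrid cells, against 23.0 and 27.0 CPM in cDC1 and 10.7 and 8.67 CPM in cDC2. Cd209b stood at 16.1 and 20.0 CPM in hybrid cells, against 1.013 and 1.54 CPM in cDC1 and 4.27 and 5.54 CPM in cDC2. Each hybrid library was above every cDC1 and cDC2 library of that genotype for these 3 genes. Cd209a was 6.32-fold and 2.06-fold higher in H/H hybrid cells than in cDC1 and cDC2, Cd209e 2.86-fold and 7.40-fold, and Cd209b 14.2-fold and 3.68-fold (edgeR adjusted p at most 0.00409 in each).

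In H/H mice of experiment 1, the hybrid libraries of Cd209d, Clec10a and Mgl2 lay between those of cDC1 and cDC2, though not every difference passed. Cd209d stood at 3.03 and 2.90 CPM in H/H hybrid cells, against 0.838 and 0.539 CPM in cDC1 and 16.8 and 12.0 CPM in cDC2, and differed from both (log2 2.09 ± 0.41 and -2.28 ± 0.34). Clec10a stood at 1.16 and 0.837 CPM in H/H hybrid cells, against 4.93 and 5.48 CPM in cDC2, and was 5.19-fold lower (edgeR adjusted p = 9.89e-05). Against cDC1 it missed the threshold (log2 1.44 ± 0.43, edgeR adjusted p = 0.0567). Mgl2 stood at 1.34 and 1.12 CPM in H/H hybrid cells, against 2.20 and 1.51 CPM in cDC2. It did not overlap there and did not pass (log2 -0.60 ± 0.39, edgeR adjusted p = 0.303). Summed with Clec10a it was 3.17-fold lower than in cDC2 (edgeR adjusted p = 0.00196), and DESeq2 also called the rise of Clec10a over cDC1.

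Against cDC1, then, 5 of 6 lectins were higher in H/H hybrid cells (7.85% of all genes passed, 5.24% as higher). Against cDC2, 3 were higher and 2 lower (25.4% of all genes passed, 12.9% as higher and 12.5% as lower). Leaving out H/H cDC1 replicate 1 ended the calls on Cd209e and Mgl2 against cDC1 (edgeR adjusted p = 0.0556 and 0.0663), and leaving out H/H cDC1 replicate 2 that on Cd209d (0.0873). Of the marker lists, 9 of 10 cDC2 genes and 8 of 11 macrophage genes were higher and 6 of 10 cDC1 genes lower in H/H hybrid cells than in H/H cDC1. Of 9 tested monocyte genes, 5 were higher and 0 lower in that comparison. Against H/H cDC2, 8 of 10 cDC2 genes were lower, 8 of 10 cDC1 genes higher and 1 of 11 macrophage genes lower in H/H hybrid cells. Of the monocyte genes, 2 were higher and 3 lower. The summed macrophage level was 548 to 590 CPM in H/H hybrid cells and 573 to 656 CPM in H/H cDC2. The summed monocyte level was 2228 to 2353 CPM in H/H hybrid cells, 1666 to 1846 CPM in H/H cDC1 and 1622 to 1911 CPM in H/H cDC2. The part of these markers in the lectin values was not tested.

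**Figure D3:**
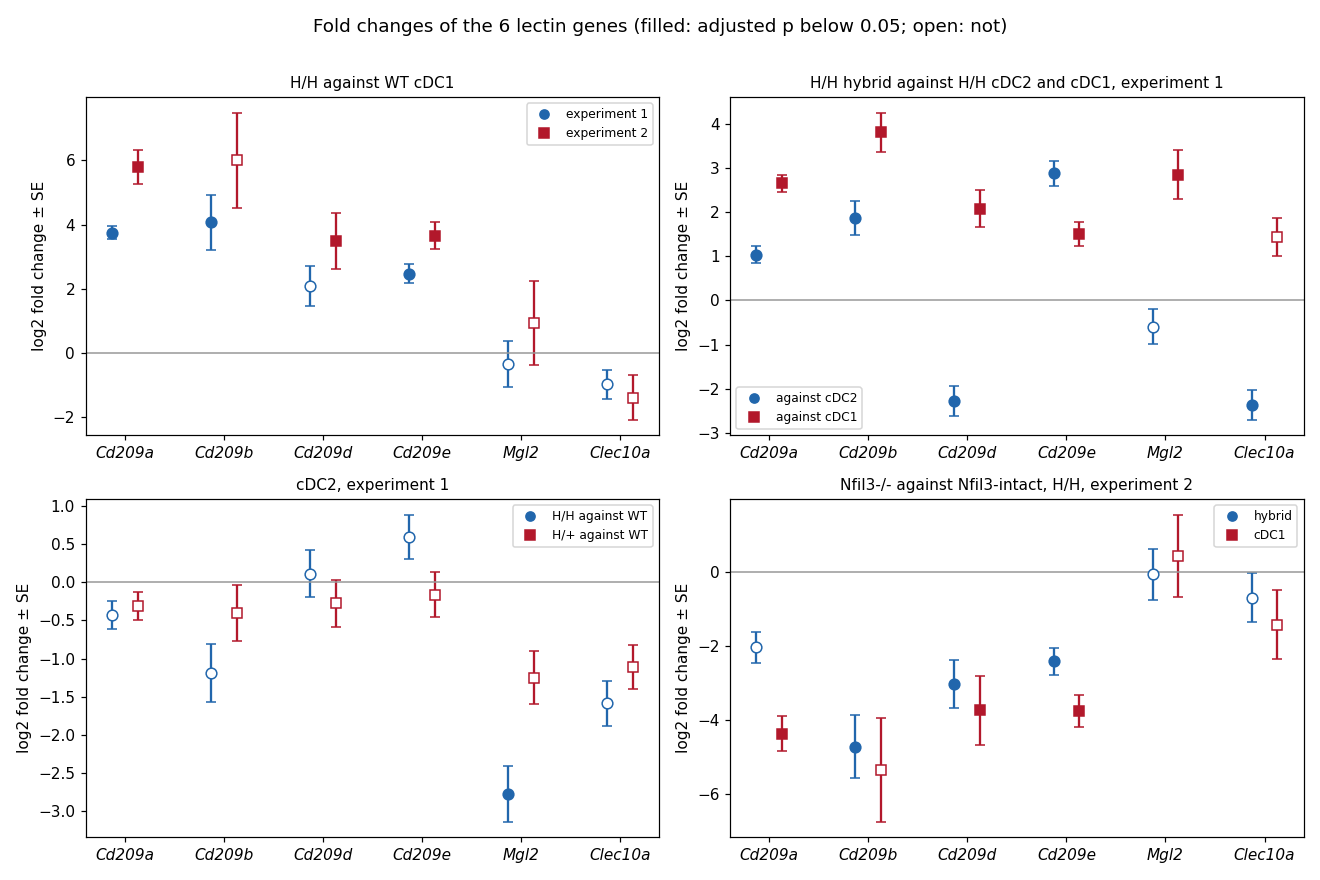
Log2 fold changes of the 6 lectins with standard errors in the main comparisons of the study. Filled points passed the adjusted threshold of 0.05, among them Mgl2 alone in H/H against WT cDC2, and Cd209d and Cd209e in both Nfil3-/- comparisons.

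In H/+ mice, too, Cd209a was highest in hybrid cells, then cDC2, then cDC1. Cd209a stood at 850 and 1246 CPM in H/+ hybrid cells, against 65.8 and 88.8 CPM in cDC1 and 414 and 501 CPM in cDC2. All 6 lectins were higher in H/+ hybrid cells than in H/+ cDC1 (16.5% of all genes passed, 9.77% as higher), from 2.54-fold for Cd209e to 49.8-fold for Mgl2, which had 2 and 2.12 counts in the cDC1 libraries. Against H/+ cDC2, Cd209a (2.29-fold), Cd209b (3.16-fold) and Cd209e (8.19-fold) were higher and Cd209d (3.38-fold) and Clec10a (3.40-fold) lower, where 19% of all genes passed, 10.3% as higher and 8.71% as lower. Cd209b lost that call without H/+ hybrid replicate 2 or H/+ cDC2 replicate 1 (edgeR adjusted p = 0.087 and 0.0768), and Mgl2 passed without H/+ hybrid replicate 1 (log2 -1.25, edgeR adjusted p = 0.0463). Of the marker lists, 9 of 10 cDC2 genes, 8 of 11 macrophage genes and 2 of 5 B cell genes were higher and 9 of 10 cDC1 genes lower in H/+ hybrid cells than in H/+ cDC1. Of 9 tested monocyte genes, 3 were higher and 2 lower in that comparison. The summed macrophage level was 665 to 693 CPM in H/+ hybrid cells, against 98.7 to 136 CPM in H/+ cDC1 and 577 to 788 CPM in H/+ cDC2. Against H/+ cDC2, 9 of 10 cDC1 genes were higher, 2 of 10 cDC2 genes higher and 6 lower, and 0 of 11 macrophage genes passed. Of the monocyte genes, 2 were higher and 3 lower. The part of these markers in the lectin values was not tested.

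No lectin differed past the threshold between hybrid cells with 2 altered Irf8 alleles and those with 1. Between H/H and H/+ hybrid cells 0 of 6 lectins and 0.131% of all genes passed, 3 lectins had an unadjusted edgeR p below 0.05, and DESeq2 called 1, Mgl2. Mgl2 stood at 1.34 and 1.12 CPM in H/H hybrid cells, against 5.21 and 2.24 CPM in H/+ hybrid cells, without overlap (log2 -1.59 ± 0.39, edgeR adjusted p = 0.23). Clec10a stood at 1.16 and 0.837 CPM in H/H hybrid cells, against 2.63 and 1.67 CPM in H/+ hybrid cells (log2 -1.09 ± 0.35, edgeR adjusted p = 0.547). Cd209e had a value in the other direction, 62.9 and 80.5 CPM in H/H hybrid cells against 39.6 and 54.0 CPM in H/+ hybrid cells (log2 0.61 ± 0.26, edgeR adjusted p = 0.727).

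In experiment 2 the H/H hybrid cells were again above H/H cDC1 for Cd209a and Cd209b. Cd209a stood at 841 and 1260 CPM in hybrid cells, against 174 and 403 CPM in cDC1 (3.64-fold, edgeR adjusted p = 0.0317). Cd209b stood at 15.3 and 38.6 CPM in hybrid cells, against 1.18 and 5.58 CPM in cDC1 (7.84-fold, edgeR adjusted p = 0.0423). Cd209e overlapped, with 58.3 and 105 CPM in hybrid cells and 31.6 and 59.1 CPM in cDC1. These 2 of 6 passed, and 12.5% of all genes, 7.24% as higher. Cd209a lost its call without H/H hybrid replicate 1 or 2 (edgeR adjusted p = 0.0579 and 0.15) and Cd209b without H/H hybrid replicate 2 or H/H cDC1 replicate 1 (edgeR adjusted p = 0.161 and 0.0797), whereas Cd209d and Cd209e passed without H/H cDC1 replicate 2 (edgeR adjusted p = 0.0381 and 0.0482). Of the marker lists, 9 of 10 cDC2, 6 of 11 macrophage, 6 of 10 monocyte and 1 of 3 tested B cell genes were higher and 5 of 10 cDC1 genes lower in hybrid cells. The summed macrophage level was 348 to 437 CPM in H/H hybrid cells, against 89.0 to 98.1 CPM in H/H cDC1, and its part in the lectin values was not tested.

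The balance between Cd209e and Cd209a differed by population. There were 0.192 and 0.176 counts of Cd209e per count of Cd209a in H/H cDC1, and 0.372 and 0.524 in WT cDC1 of experiment 1. Hybrid cells of experiment 1 had 0.0433 to 0.0869, and cDC2 had 0.00854 to 0.0259. The 3 populations did not overlap in this ratio, with cDC1 above hybrid cells and hybrid cells above cDC2. In experiment 2 the ratio was 0.182 and 0.147 in H/H cDC1 and 0.606 and 0.769 in WT cDC1, where it rests on 99 and 121 counts of Cd209a. It was 0.108 and 0.0956 in Zeb2 -165D123 hybrid cells and 0.0694 and 0.0836 in H/H hybrid cells. This ratio is a description and was not tested.

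**Figure D4:**
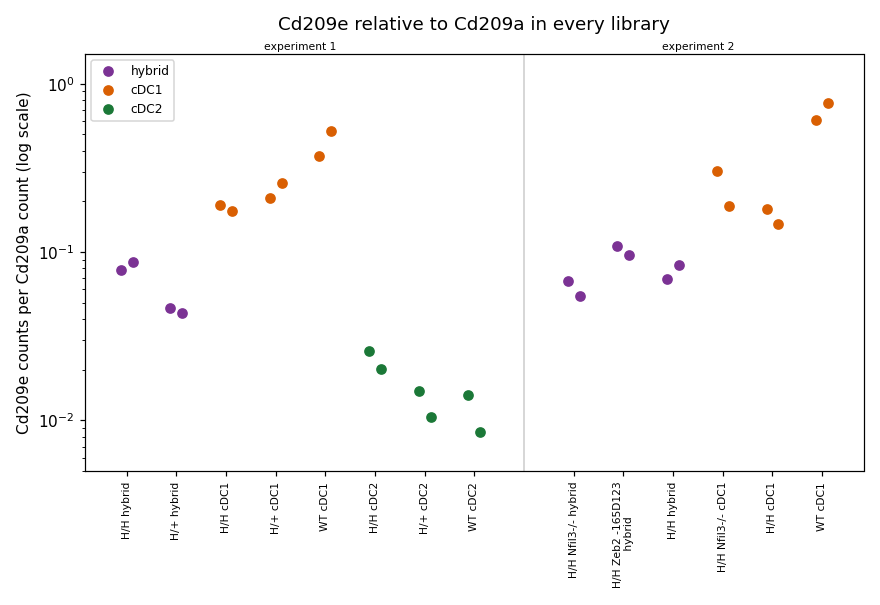
Counts of Cd209e per count of Cd209a in each library, on a log axis, by group. cDC1 libraries lie above hybrid libraries, and hybrid libraries above cDC2 libraries.

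cDC1 without Nfil3 had much less Cd209a, Cd209d and Cd209e than H/H cDC1 with it. Cd209a stood at 12.6 and 15.5 CPM in H/H Nfil3-/- cDC1, against 174 and 403 CPM in H/H cDC1 (20.5-fold lower, edgeR adjusted p = 0.00566). Cd209e stood at 3.84 and 2.91 CPM in H/H Nfil3-/- cDC1, against 31.6 and 59.1 CPM in H/H cDC1 (13.5-fold lower, edgeR adjusted p = 0.00338). Both genes lay far below every H/H library, and Cd209e was within the 2.85 to 4.35 CPM of the WT cDC1 libraries. Cd209d had 0 and 3 counts in H/H Nfil3-/- cDC1 and 11 and 37 in H/H cDC1, a ratio of sums that was 14.5-fold lower with a 95% counting interval of 4.68 to 72.9 (edgeR adjusted p = 0.0434). Cd209b had 0 and 3 counts in H/H Nfil3-/- cDC1 and 23 and 125 in H/H cDC1, 44.8-fold lower with a counting interval of 15.0 to 220, and did not pass (edgeR adjusted p = 0.123). Mgl2 and Clec10a had at most 4 counts in any Nfil3-/- cDC1 library and at most 8.87 in H/H cDC1, and neither passed.

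These 3 of 6 calls, against 3.03% of all genes (1.69% as lower), rest on few libraries. The sexes were not balanced in experiment 2: Xist was at 169 CPM in Nfil3-/- cDC1, 193 CPM in Nfil3-/- hybrid cells and 302 CPM in Zeb2 -165D123 hybrid cells, each in replicate 2, and at most 0.4598 CPM in the other 9 libraries, all H/H and WT libraries among them. With a term for Xist the call on Cd209d was lost here (edgeR adjusted p = 0.0699), and that on Cd209b in Nfil3-/- hybrid cells described next (edgeR adjusted p = 0.0583). Without H/H Nfil3-/- cDC1 replicate 2 none was left (edgeR adjusted p = 0.0664 for Cd209a, 0.0622 for Cd209e and 0.0726 for Cd209d), and without replicate 1 the calls on Cd209a (0.0603) and Cd209d (0.243) were lost. Cd209d was also lost without H/H cDC1 replicate 2 (0.165), and Cd209b passed without H/H cDC1 replicate 1 (0.0416). The cDC2 markers had a summed level of 333 to 357 CPM in H/H Nfil3-/- cDC1 and 399 to 410 CPM in H/H cDC1, with 1 of 10 genes lower, and 192 to 219 CPM in WT cDC1. The cDC1 markers had a summed level of 3071 to 3120 CPM in H/H Nfil3-/- cDC1 and 2444 to 2470 CPM in H/H cDC1. Of these 10 genes 2 were higher and 1 lower. The 1 B cell gene that was lower was Ms4a1, with 114 CPM in H/H Nfil3-/- cDC1 against 175 CPM in H/H cDC1. The part of these genes in the lectin values was not tested.

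In hybrid cells without Nfil3, Cd209b, Cd209d and Cd209e were lower. Cd209b stood at 0.675 and 1.32 CPM in H/H Nfil3-/- hybrid cells, against 15.3 and 38.6 CPM in H/H hybrid cells (26.3-fold lower, edgeR adjusted p = 0.0306). Cd209d stood at 0.450 and 0.501 CPM, against 2.61 and 5.19 CPM (8.07-fold lower, edgeR adjusted p = 0.0176). Cd209e stood at 13.6 and 17.1 CPM, against 58.3 and 105 CPM (5.33-fold lower, edgeR adjusted p = 0.0122). For these genes, and for Cd209a, each Nfil3-/- library was below each H/H library. Cd209a stood at 202 and 311 CPM in H/H Nfil3-/- hybrid cells, against 841 and 1260 CPM in H/H hybrid cells, and just missed the threshold (log2 -2.03 ± 0.42, edgeR adjusted p = 0.0519), while DESeq2 called it. Mgl2 was at 0.450 and 0.866 CPM, against 0.652 and 0.733 CPM, and overlapped.

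Here too 3 of 6 lectins passed (3.73% of all genes, 1.8% as lower), and no call remained without either Nfil3-/- hybrid library (edgeR adjusted p from 0.0927 to 0.205). Cd209b (0.0865) and Cd209d (0.22) were also lost without H/H hybrid replicate 2. Zeb2 itself was at 19.5 and 27.8 CPM in H/H Nfil3-/- hybrid cells and 38.6 and 46.9 CPM in H/H hybrid cells. The cDC2 list stood at 930 to 931 CPM in H/H Nfil3-/- hybrid cells and 1040 to 1046 CPM in H/H hybrid cells. Of its 10 genes 2 were lower, and 0 of 11 macrophage genes passed. The cDC1 list stood at 2372 to 2501 CPM in H/H Nfil3-/- hybrid cells and 1650 to 1741 CPM in H/H hybrid cells. Of its 10 genes 3 were higher and 0 lower. Their part in the lectin values was not tested.

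Hybrid cells without Nfil3 remained above cDC1 without Nfil3 in Cd209a and Cd209e. Cd209a stood at 202 and 311 CPM in H/H Nfil3-/- hybrid cells, against 12.6 and 15.5 CPM in H/H Nfil3-/- cDC1 (18.3-fold, edgeR adjusted p = 0.0034), and Cd209e at 13.6 and 17.1 CPM, against 3.84 and 2.91 CPM (4.55-fold, edgeR adjusted p = 0.0261). These were 2 of 6 lectins, against 5.28% of all genes, 4.02% as higher. Cd209e lost the call without any of the 4 libraries (edgeR adjusted p = 0.0748 to 0.238), and Cd209a without H/H Nfil3-/- cDC1 replicate 2 (0.0505). In hybrid cells 9 of 10 cDC2, 7 of 11 macrophage, 5 of 10 monocyte and 1 of 3 tested B cell genes were higher and 4 of 10 cDC1 genes lower. The summed macrophage level was 365 to 471 CPM in H/H Nfil3-/- hybrid cells, against 48.9 to 79.0 CPM in H/H Nfil3-/- cDC1, and its part in the lectin values was not tested. The effect of Nfil3 loss itself was not shown to differ between hybrid cells and cDC1: 0 of 6 lectins and 0.00689% of all genes passed the test of that difference, 2 lectins had an unadjusted edgeR p below 0.05, and DESeq2 called 0. The difference, hybrid minus cDC1, was 2.33 ± 0.60 on the log2 scale for Cd209a and 1.34 ± 0.56 for Cd209e.

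Hybrid cells with the altered Zeb2 enhancer had no counts of Mgl2, while Cd209a and Cd209e remained abundant. Cd209a stood at 699 and 721 CPM in H/H Zeb2 -165D123 hybrid cells, against 841 and 1260 CPM in H/H hybrid cells (log2 -0.57 ± 0.41, edgeR adjusted p = 0.557). Cd209e stood at 75.6 and 69.0 CPM, against 58.3 and 105 CPM (log2 -0.18 ± 0.35, edgeR adjusted p = 0.856). Neither passed the threshold. Cd209a did not overlap between the groups, and Cd209e did. Mgl2 had 0 counts in both Zeb2 -165D123 libraries, against 25 over both H/H libraries, which is at least 9.09-fold lower with a floor of 3 counts over the group (edgeR adjusted p = 0.0168). Clec10a had 1 and 4 counts, against 14 and 16.52 (log2 -2.72 ± 0.81, edgeR adjusted p = 0.0747), and the 2 genes summed stood at 0.0575 and 0.181 CPM, against 1.41 and 1.69 CPM (log2 -3.56 ± 0.71, edgeR adjusted p = 0.00989). The call on Mgl2 alone was lost without any of the 4 libraries (edgeR adjusted p = 0.0839 to 0.132).

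Cd209b and Cd209d did not pass, and both Zeb2 -165D123 libraries lay below either H/H library for them, as for Cd209a. Cd209b stood at 3.97 and 5.26 CPM in Zeb2 -165D123 hybrid cells, against 15.3 and 38.6 CPM in H/H hybrid cells (log2 -2.54 ± 0.72, edgeR adjusted p = 0.132). Cd209d stood at 1.49 and 1.77 CPM, against 2.61 and 5.19 CPM (log2 -1.25 ± 0.57, edgeR adjusted p = 0.297). So 1 of 6 lectins passed, against 4.03% of all genes, 1.79% as lower. Macrophage markers went the other way, with 8 of 11 tested genes higher and a summed level of 950 to 1073 CPM in Zeb2 -165D123 hybrid cells, against 348 to 437 CPM in H/H hybrid cells. Marco, a receptor of marginal zone macrophages, was at 2.51 ± 0.347 CPM in Zeb2 -165D123 hybrid cells and 0.466 ± 0.340 CPM in H/H hybrid cells, and Vsig4 had 18 and 2 counts. The cDC2 list had 4 of 10 genes lower, Zeb2 among its members, and the cDC1 list 4 of 10 higher. Of 10 monocyte genes 3 were lower and 0 higher. Their summed level was 1518 to 1556 CPM in Zeb2 -165D123 hybrid cells, against 1953 to 2017 CPM in H/H hybrid cells. Their part in the lectin values was not tested.

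Other C-type lectins did not move as a block with the Cd209 and Mgl genes. In WT cDC1, 4 of 13 tested genes of a list of 17 were higher than in WT cDC2, namely Ly75, Cd207, Clec9a and Clec12a, and 7 were lower, with a median log2 fold change of -1.80 against -0.07 over all genes. Clec7a, the beta-glucan receptor Dectin-1, was at 20.0 ± 5.83 CPM in WT cDC1 and 464 ± 52.1 CPM in WT cDC2, and Cd207, the gene of langerin, at 79.5 ± 8.27 and 0.266 ± 0.171 CPM. In H/H against WT cDC1 of experiment 1, Clec7a and Cd302 were higher and Cd207 lower (15.7 ± 3.75 CPM in H/H cDC1, 79.5 ± 8.27 CPM in WT cDC1). Langerin, too, binds mannose-containing glycans. Clec9a was the 1 of 13 higher in H/H than in WT cDC2, and 0 were lower. Mrc1, the mannose receptor gene, was at 28.8 ± 2.58 CPM in Zeb2 -165D123 hybrid cells and 4.40 ± 2.15 CPM in H/H hybrid cells, and Mrc1 and Ly75 were the 2 of 11 that were higher there, with 0 lower. Cd209c and Clec4g, which lie beside the Cd209 members, were the 2 of 11 that were lower in Nfil3-/- hybrid cells.

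Genes around the Cd209 members, looked up after the members' values were seen, moved with them in part. Within 200 kb on either side, 20 genes were tested in experiment 1 and 17 in experiment 2, members included. The members among the genes counted below are the calls already given above. In H/H against WT cDC1 of experiment 1, 4 of 20 were higher, namely Cd209a, Cd209b, Cd209e and Mcemp1, a membrane protein gene of myeloid cells. Of all genes 2.7% were higher there. Mcemp1 was at 9.23 ± 1.41 CPM in H/H cDC1 and 3.12 ± 0.706 CPM in WT cDC1 (edgeR adjusted p = 0.0161). In experiment 2, 6 of 17 were higher, Cd209a, Cd209d, Cd209e, Clec4g, Mcemp1 and Trappc5, against 4.37% of all genes. In Nfil3-/- cDC1 6 of 17 were lower, against 1.69% of all genes, namely Cd209a, Cd209d, Cd209e, Mcemp1, Fcor and Clec4g. In Nfil3-/- hybrid cells 7 of 17 were lower, against 1.8% of all genes. These were Cd209b, Cd209c, Cd209d, Cd209e, Mcemp1, Fcor and Clec4g. Mcemp1 was at 13.4 and 14.2 CPM in H/H Nfil3-/- hybrid cells, against 44.2 and 44.6 CPM in H/H hybrid cells. Clec4g, a lectin gene of liver and lymph node endothelium, had 0 counts in H/H Nfil3-/- cDC1 and 36 in H/H cDC1, at least 10.9-fold lower with the same floor. Gm16553, an antisense gene that overlaps Clec4g, was among the genes called between populations, and whether the counting used strand is not given in the sources used here, so their reads cannot be told apart.

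The neighbours did not follow the members everywhere. Mcemp1 was higher in WT cDC2 than in any other group, at 112 ± 16.8 CPM, and was lower in H/H hybrid cells than in H/H cDC2 (43.0 ± 13.7 against 82.8 ± 5.01 CPM, edgeR adjusted p = 0.0237), where Cd209a, Cd209b and Cd209e were higher. It was the 1 of 17 lower in Zeb2 -165D123 hybrid cells, at 12.5 and 13.97 CPM against 44.2 and 44.6 CPM in H/H hybrid cells. Of all genes 1.79% were lower there. Fcer2a, the low-affinity IgE receptor gene, was 6.57-fold lower in H/H hybrid cells than in H/H cDC2. In H/H against WT cDC2 none of the 20 passed. Around Mgl2 and Clec10a, Mgl2 was the 1 of 17 tested genes past the threshold in that comparison, and likewise the 1 of 14 in Zeb2 -165D123 against H/H hybrid cells.

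**Figure D5:**
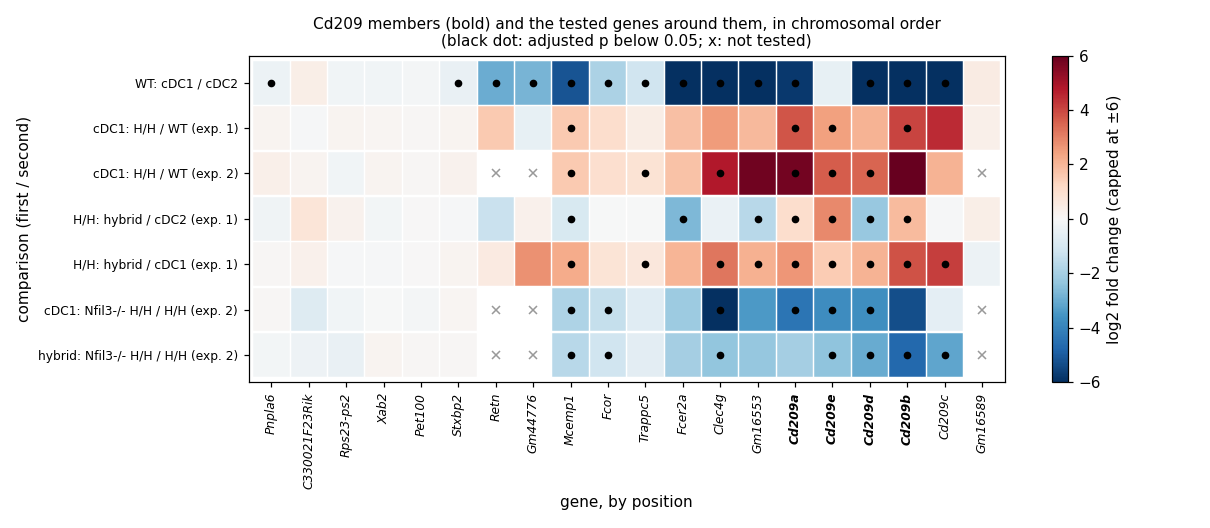
Log2 fold change of each tested gene within 200 kb of the Cd209 members (columns, in chromosomal order, members in bold) in 7 comparisons (rows), as colour capped at 6 on either side, with a dot where adjusted p was below 0.05 and a cross where the gene was not tested. In the 4 comparisons of genotypes every dot lies between Mcemp1 and Cd209c.

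Across all libraries the genes whose levels ran most like Cd209a were Skint3, Nxpe4, Selenop, Sat1 and Slc7a11. The measure is the lower of the Pearson r of log2 CPM over the 16 libraries of experiment 1 and the 12 of experiment 2, among 7440 genes, and libraries share their group, so it is a description. It was 0.976 for Skint3, 0.949 for Nxpe4, 0.948 for Selenop, 0.937 for Sat1 and 0.935 for Slc7a11. Skint3 stood on average at 49.5 CPM in H/H hybrid cells, 15.0 in H/H cDC1 and 2.36 in WT cDC1 of experiment 1. For Cd209b the highest values were 0.933 for Cd209a itself, 0.927 for Abca9 and 0.919 for Trappc5, the neighbour of Mcemp1, followed by Glul and Mefv. For Cd209e they were 0.914 for Ext1, which builds heparan sulfate, 0.88 for Trim25 and 0.875 for Deptor, followed by Epb41 and Zfas1. Cd209d, Mgl2 and Clec10a did not reach 10 CPM in a group of each experiment and were not compared in this way.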

How the data were processed

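RNA from sorted spleen dendritic cells was sequenced in 28 libraries of 14 groups, 2 biological replicates each. The authors deposited 1 table of expected counts per experiment, per the file headers and the values. These are estimated counts per Ensembl gene that need not be whole, and 10.8% and 10.2% of all values, those of 0 included, were fractional. The submitters' processing notes name bcl2fastq, DRAGEN and edgeR, and the genome build and strand setting of the counting are not given in the sources used here. Of 55774 lines per table, 287 repeated a gene ID with equal values and were dropped, leaving 55487 genes, and no column lacked a sample.

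Counts were rounded and tested per experiment with edgeR 4.0.16 (R 4.3.3): filterByExpr, TMM scaling, 1 coefficient per group and the robust quasi-likelihood test, with 8 and 6 residual degrees of freedom, over 16036 and 14504 genes. Each standard error is the size of the log2 fold change over the root of its F value. Levels in CPM use TMM-scaled library sizes; on the log2 scale, CPM carry a prior count of 2. Counts in 2 libraries per group limit the precision, p-values measure the spread between libraries, and counting intervals (95%, exact) and the floor of 3 counts cover counting error only. No 2 libraries of a group agreed within sampling noise. A lack of overlap between groups of 2 libraries is a description, and no share of all genes without overlap is given beside it. Groups this small are often apart without any change, so a lack of overlap is not evidence of a change. The fit was tested on simulated data with known changes, placed only in genes with many counts and with the same spread for every gene. That test does not cover lectins with few counts. Alternatives were DESeq2 1.42.0, its size factors, no filter, a replicate block, an Xist term, the compared groups alone, both experiments in 1 fit and leaving out each library; the sum of Mgl2 and Clec10a was added after seeing the data. The members and gene lists were chosen with earlier results of these data known. Named were the 6 members, 4 reference genes, up to 3 other lectins per comparison (largest fold among those called that reach 10 CPM) and the 5 genes most like each member that reaches 10 CPM in both experiments. Lectins and markers named outside that rule were named after their values were seen. Gene positions are from GENCODE M21 (GRCm38), to which 99.4% of IDs matched, and 5 of the 6 members had a RefSeq promoter (GRCm38.p6).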

Additional observations from a re-analysis of the deposited data

Results flagged for a closer look

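In experiment 1, how far the change with the H/H genotype differs from cDC2 to cDC1 was tested itself, and 3 lectins passed. On the log2 scale, cDC1 minus cDC2, it was 4.18 for Cd209a, 5.26 for Cd209b and 1.87 for Cd209e (edgeR adjusted p = 3.65e-06, 0.0108 and 0.0408). H/H libraries were above WT libraries in cDC1 for all 3, and in cDC2 below WT for Cd209a and Cd209b and above WT for Cd209e. None of these 3 passed in cDC2. Over fits that left out 1 library the difference was 3.99 to 4.34 for Cd209a, 4.94 to 5.54 for Cd209b and 1.45 to 2.21 for Cd209e. As given above, Cd209b and Cd209e lost their calls in some of these fits.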

How the results depend on the processing

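Of 61 gene values past the threshold, 521 of 587 alternative values stayed past it in the same direction, 66 were no longer past it and 0 changed sign. Of 65 values not past it, 56 of 639 alternative values passed, and 21 changed sign while uncalled. DESeq2 gave no adjusted p in 11 cases. The number of the 6 lectins past the threshold, with the main number in brackets, changed by more than 1.5 times as follows. Without the filter on low counts it was 2 (0) in H/H against H/+ cDC1, 2 (0) in H/+ against WT cDC2, 2 (1) in H/H against WT cDC2, 1 (0) in H/H against H/+ hybrid cells, 5 (3) for the difference of H/H effects, 2 (1) in Zeb2 -165D123 against H/H hybrid cells and 1 (2) in hybrid cells against cDC1 of experiment 2. DESeq2 gave 1 (0), 2 (1) and 1 (0) in H/H against H/+ cDC1, H/H against WT cDC2 and H/H against H/+ hybrid cells. With only the compared groups in the fit it was 2 (1) in H/H against WT cDC2, 3 (5) in H/+ hybrid cells against H/+ cDC2 and 1 (3) in Nfil3-/- against H/H hybrid cells. With both experiments in 1 fit, a genotype and population has 1 coefficient for both, so each comparison has 1 joint result. In H/H against WT cDC1 the joint fit gave 5 (3 in each experiment), with Clec10a among them as lower (edgeR adjusted p = 0.0369). In hybrid cells against cDC1 it gave 6 (2 in experiment 2). A term for Xist gave 1 in that comparison of experiment 2. Changes by 1 lectin within 1.5 times were as follows. Without the filter it was 6 (5) in WT cDC1 against cDC2, 3 (2) in H/+ against WT cDC1, 4 (3) in H/H against WT cDC1 of experiment 1, 6 (5) in H/H hybrid cells against cDC1 of experiment 1 and 2 (3) in Nfil3-/- against H/H hybrid cells. DESeq2 gave 3 (2) in H/+ against WT cDC1, 4 (3) in H/H against WT cDC1 of either experiment and in Nfil3-/- against H/H cDC1, and in hybrid cells against H/H cDC1 6 (5) in experiment 1, as did both experiments in 1 fit, and 3 (2) in experiment 2. With only the compared groups it was 2 (3) in Nfil3-/- against H/H cDC1 and 3 (2) in Nfil3-/- hybrid cells against Nfil3-/- cDC1, and with a term for Xist 2 (3) in both Nfil3-/- against H/H comparisons. Xist was detected in replicate 2 of every group in experiment 1, where the replicate block is also a term for sex, and in experiment 2 in replicate 2 of both Nfil3-/- groups and of the Zeb2 -165D123 group but in no H/H or WT library, so sex is partly tied to these genotypes there. The causes of these changes were not tested.

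Replicate numbers were not treated as pairs: same-numbered libraries deviated together with correlations of 0.0398 to 0.342 in experiment 1 and -0.205 to 0.231 in experiment 2. With the replicate block 1 lectin (0) passed in H/H against H/+ cDC1, 3 (1) in H/H against WT cDC2, 2 (1) in Zeb2 -165D123 against H/H hybrid cells and 4 (2) in hybrid cells against cDC1 of experiment 2. It was 3 (2) in H/+ against WT cDC1 and in Nfil3-/- hybrid cells against Nfil3-/- cDC1, and 4 (3) in H/H against WT cDC1 of either experiment and in both Nfil3-/- against H/H comparisons.

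Leaving out 1 library at a time, with the lone library assumed to vary like the other groups, the number passing ranged from 1 to 2 in H/+ against WT cDC1, 2 to 3 in H/H against WT cDC1, 0 to 1 in H/H against H/+ cDC1, 0 to 1 in H/H against WT cDC2, 4 to 6 in H/+ hybrid cells against cDC2, 3 to 5 in H/H hybrid cells against cDC1, 5 to 6 in H/H cDC1 against cDC2 and 1 to 3 for the difference of H/H effects. In experiment 2 it ranged from 2 to 4 in H/H against WT cDC1, 0 to 4 in Nfil3-/- against H/H cDC1, 0 to 3 in Nfil3-/- against H/H hybrid cells, 0 to 0 in Zeb2 -165D123 against H/H hybrid cells, 0 to 4 in hybrid cells against cDC1 and 0 to 1 in Nfil3-/- hybrid cells against Nfil3-/- cDC1.

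Values that changed sign were all uncalled. Their log2 ranges over left-out libraries were -0.99 to 0.47 for Mgl2 in H/H against WT cDC1, -0.88 to 0.53 for Clec10a in H/H against H/+ cDC1, -1.05 to 0.22 for Cd209d and -0.51 to 0.25 for Cd209e in H/+ against WT cDC2, and -0.15 to 0.34 for Cd209d in H/H against WT cDC2. In H/H against H/+ hybrid cells they were -0.52 to 0.028 for Cd209a, -1.05 to 0.16 for Cd209b and -0.27 to 0.0080 for Cd209d. In experiment 2 they were -0.82 to 1.14 for Mgl2 in Nfil3-/- against H/H cDC1, -0.59 to 0.32 for Mgl2 in Nfil3-/- against H/H hybrid cells and -0.56 to 0.31 for Cd209e in Zeb2 -165D123 against H/H hybrid cells. For the difference of Nfil3 effects they were -0.92 to 4.40 for Cd209b, -0.27 to 4.50 for Cd209d, -1.18 to 0.77 for Mgl2 and -0.36 to 1.62 for Clec10a. Mgl2 in H/H against WT cDC1 was -0.027 with both experiments in 1 fit, set against 0.93 in experiment 2 alone. The sum of Mgl2 and Clec10a, set against Mgl2 alone, turned to -0.022 in H/H against H/+ cDC1, -1.08 in H/H against WT cDC1 of experiment 2, -0.69 in Nfil3-/- against H/H cDC1 and 0.32 for the difference of Nfil3 effects. Depth limits Mgl2 and Clec10a in cDC1, and Cd209b and Cd209d in WT and Nfil3-/- cDC1, where libraries held few counts or none.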
